A study of Mus musculus with 8 samples.

Results

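The genes described here are 37 cell cycle and growth arrest genes, taken by symbol from a table of liver RNA-seq counts that lists 16540 genes. All 37 were in the table, and 33 had enough counts to be tested, among 12307 genes tested in all. Liver RNA was sequenced from 4 vehicle mice and 4 ISOGK mice, with 1 library per mouse according to the labels. All mice were male *Apoe*-/- animals, which lack apolipoprotein E, carry high plasma cholesterol and are prone to atherosclerosis, and all were given a Western (high cholesterol) diet. ISOGK is isoginkgetin, a plant biflavonoid that the study examined as an inhibitor of ATP-citrate lyase, and it was injected intraperitoneally at 20 mg/kg/day for 8 weeks, while control mice received vehicle, which the count table names DMSO. The age of the mice is not given in the sources used here. The comparison asks how the liver transcriptome differed between ISOGK and vehicle mice, and nothing in the labels says that mice with the same number were paired. The labels are all that separates the mice, and p-values set the difference between groups against the spread between these libraries.

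Cells leave G1 phase when D-type cyclins with CDK4 and cyclin E with CDK2 inactivate the retinoblastoma protein, which releases E2F factors to switch on genes for DNA replication and nucleotide supply. Mitotic cyclins, CDK1 and the kinases of the spindle then drive division, while CDK inhibitors and the GADD45 proteins, some of them targets of p53, hold cells back. In the adult liver most hepatocytes rest outside the cycle and re-enter it after tissue loss or injury, and several arrest genes are expressed there and respond to stress, fasting and hormones.

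The deposited table holds raw, unnormalized counts for each gene, and levels are given here as CPM, counts scaled to library size and corrected with edgeR's TMM factors. Totals were 19605286 to 24461854 counts per vehicle mouse and 17457106 to 21626399 per ISOGK mouse, and counting error is only part of the spread between mice. *Apoe* itself had 3252 to 6489 counts per library, or 163.2 to 342.5 CPM. No mouse with intact *Apoe* was sequenced for comparison, so whether this level is reduced cannot be seen here and the knockout rests on the labels. The markers of hepatocytes summed to 154800 to 167000 CPM in vehicle and 143300 to 178800 CPM in ISOGK mice, which fits the labelled tissue. Vehicle mouse 4 stood apart in 10 of 10 skeletal muscle markers, which summed to 69.1 CPM in it and to between 0 and 0.629 CPM in the other libraries. In the quasi-likelihood test of edgeR with Benjamini-Hochberg adjustment over all genes tested, a gene was called at an adjusted p under 0.05. This gave 506 genes higher and 423 lower in ISOGK mice, or 262 higher and 804 lower with library size alone as the scaling, which moved the median log2 fold change of all genes to -0.13.

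Of the 33 tested members, 3 rose in ISOGK mice (*Gadd45g*, *Myc* and *Cdk4*) and 2 fell (*Rrm2* and *Tk1*). Among all genes tested, 4.11% were called higher and 3.44% lower, 7.55% in either direction. The groups did not overlap for 3 members that were higher and for 3 that were lower (*Rrm2*, *Tk1* and *Mcm5*), where 7.92% and 7.36% of all genes did so. An unadjusted p under 0.05 was reached by 10 of the 33 members, against 24.2% of all genes. The members were chosen with earlier results of these data known, so these shares describe the list and do not test it. The median log2 fold change of the members was 0.03, beside 0.00 for all genes, with 18 members positive and 15 negative, and it was -0.11 when library size alone was used, where all genes had -0.13, and -0.0058 without vehicle mouse 4. Without vehicle mouse 4, 2 members were called higher and 1 lower. In whole liver, fewer cells of a type and less RNA per cell cannot be told apart.

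**Figure D1:**
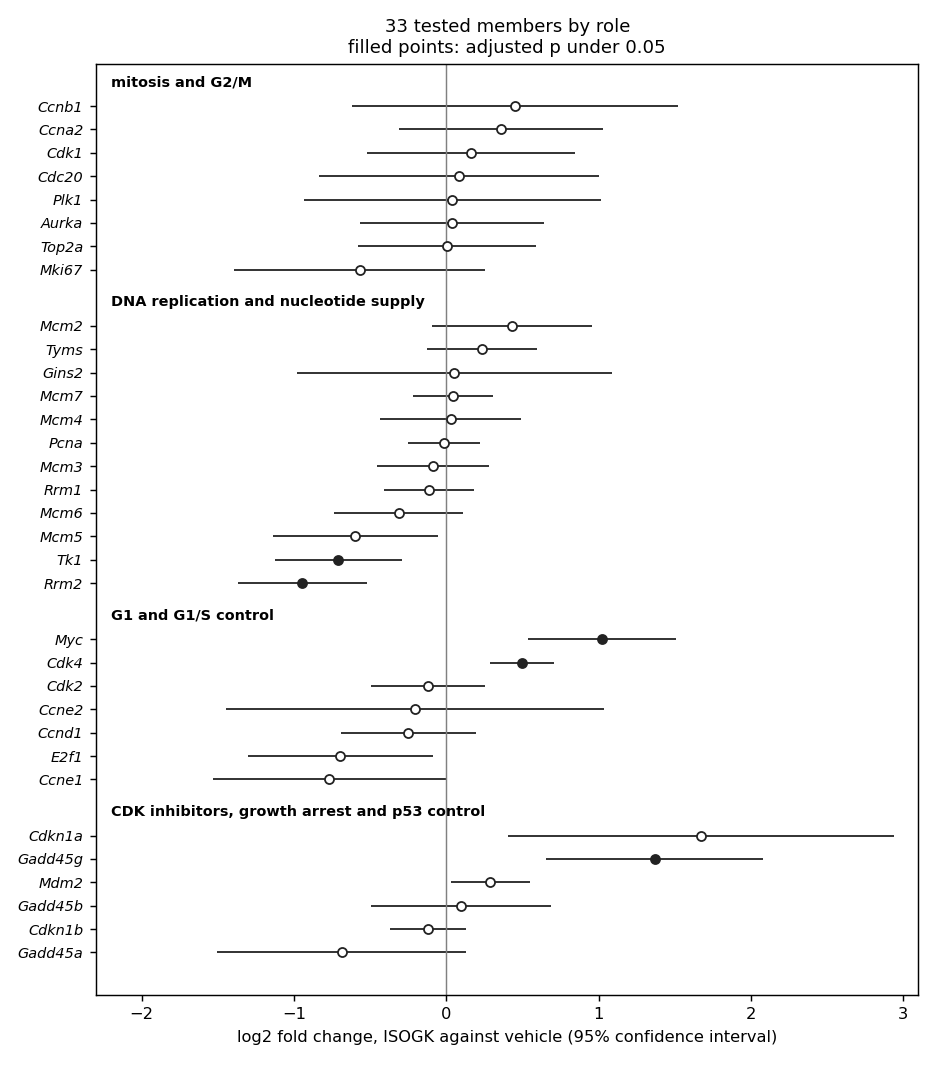
Log2 fold change of ISOGK against vehicle (x axis) for the 33 tested members in 4 role groups, each point with its 95% confidence interval and filled where the adjusted p was under 0.05. *Myc*, *Cdk4* and *Gadd45g* lie to the right and *Rrm2* and *Tk1* to the left, while *Cdkn1a* has the highest estimate with a wide interval and is not filled.

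The 4 promoters below belong to called members for which a RefSeq window was at hand, and they are shown because these genes moved in opposite directions and can be set against the motifs known from cell cycle promoters. Each is the 250 bases before the annotated start site, the stretch in which motifs were searched and counted for every gene, in RefSeq, GRCm38.p6, written 5′ to 3′ along the gene. *Rrm2* is at chr12:24708004-24708253 on the plus strand, *Tk1* at chr11:117826015-117826264 on the minus strand, *Cdk4* at chr10:127063285-127063534 on the plus strand and *Gadd45g* at chr13:51846425-51846674 on the plus strand. Capitals mark matches on either strand to an E2F site (TTTCCCGC, TTTCGCGC, TTTGCCGC or TTTGGCGC), a CHR element (TTTGAA, or with the other central base TTCGAA), an E-box with the letters CACGTG a GC box with the letters GGGCGG or, by its name, a CCAAT box.
Rrm2: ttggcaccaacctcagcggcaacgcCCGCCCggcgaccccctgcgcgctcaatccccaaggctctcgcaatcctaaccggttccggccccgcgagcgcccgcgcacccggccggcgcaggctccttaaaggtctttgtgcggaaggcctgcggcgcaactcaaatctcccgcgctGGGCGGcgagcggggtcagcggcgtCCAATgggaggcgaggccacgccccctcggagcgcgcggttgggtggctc
Tk1: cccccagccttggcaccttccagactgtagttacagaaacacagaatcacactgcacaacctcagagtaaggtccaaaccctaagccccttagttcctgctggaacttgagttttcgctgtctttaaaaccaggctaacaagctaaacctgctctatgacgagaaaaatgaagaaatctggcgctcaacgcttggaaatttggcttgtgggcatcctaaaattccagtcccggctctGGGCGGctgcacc
Cdk4: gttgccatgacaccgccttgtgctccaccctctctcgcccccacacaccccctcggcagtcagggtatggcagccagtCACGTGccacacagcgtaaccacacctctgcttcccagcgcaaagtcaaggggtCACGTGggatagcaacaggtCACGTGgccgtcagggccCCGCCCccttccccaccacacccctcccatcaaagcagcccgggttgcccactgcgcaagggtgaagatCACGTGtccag
Gadd45g: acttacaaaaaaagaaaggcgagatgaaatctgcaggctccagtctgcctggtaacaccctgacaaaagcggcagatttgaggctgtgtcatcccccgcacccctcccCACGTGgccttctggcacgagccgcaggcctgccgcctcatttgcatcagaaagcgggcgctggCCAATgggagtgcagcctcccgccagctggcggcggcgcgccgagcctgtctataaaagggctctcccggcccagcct

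The windows end just before the RefSeq start sites, which can differ from the GENCODE starts used for the gene coordinates. The GENCODE starts of *Rrm2*, *Tk1* and *Cdk4* lie inside these windows, that of *Cdk4* on the last base. The fallen genes *Rrm2* and *Tk1* had no match to the E2F letters in these windows, and neither had the uncalled replication members *Mcm2*, *Mcm3*, *Pcna*, *Rrm1* and *Tyms*. *Rrm2* had a CCAAT box whose first base lay at -50, counted from -1 just before the start site, and GC boxes at -225 and -75, while *Tk1* had a GC box at -13. The *Cdk4* window held 4 E-boxes, the letters bound by MYC with MAX and by related factors, at -172, -118, -98 and -11, and a GC box at -80. At least 4 E-boxes were found in 7 of 32851 windows (0.0213%), belonging to 5 genes, and at least 1 in 6.02%. The cut-off of 4 is the count in the *Cdk4* window itself, which was printed because *Cdk4* was called. Other motifs were not counted by number per window, and binding of MYC to this window was not tested. *Gadd45g* had an E-box at -142 and a CCAAT box at -78. Windows were given for 31 of the 37 members, 33 windows in all, and not for *Ccna2*, *Ccnd1*, *Ccne2*, *Gins2*, *Mcm4* and *Myc*. Of the 33 windows, 6 held an E2F site, 7 a CHR element, 24 a CCAAT box, 4 an E-box and 26 a GC box, beside 1.86%, 17.1%, 33.8%, 6.02% and 32.7% of all windows. By role, the E2F letters were in the windows of 4 of 11 replication, 1 of 10 mitosis, 1 of 4 G1 and 0 of 6 arrest genes. The CHR letters were in those of 5 of 10 mitosis, 2 of 11 replication, 0 of 4 G1 and 0 of 6 arrest genes. CCAAT boxes were in 9 of 10 mitosis, 8 of 11 replication, 1 of 4 G1 and 5 of 6 arrest genes. A match to letters is a description of the window and not evidence of binding. The lack of a match does not show that a site is absent, since sites with other letters or outside the window were not counted.

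Among the CDK inhibitors, GADD45 genes and p53 controls, 1 of 6 rose and none of the 6 fell. *Gadd45g* (chr13:51846678-51848468, GRCm38) encodes a small stress protein that binds CDK1 with cyclin B1 and the MAP3K4 kinase and restrains the cycle. In vehicle mice 1 to 4 it stood at 14.8, 10.9, 13.4 and 8.31 CPM, and in ISOGK mice 1 to 4 at 18.6, 38.1, 20.6 and 44.9 CPM. Each ISOGK mouse was above each vehicle mouse, with ISOGK mice 2 and 4 well above the other two. *Gadd45g* was 2.58-fold higher (log2 fold change 1.37, SE 0.31, edgeR adjusted p = 0.0359, and exact permutation p = 0.0286, the smallest that 4 mice against 4 allow). The call was close to the threshold and was kept in 7 of 16 alternative analyses, with adjusted p between 3.93e-05 and 0.162. It was lost when any vehicle mouse was left out (0.0614 without mouse 1, 0.11 without mouse 2, 0.078 without mouse 3 and 0.0806 without mouse 4) and without ISOGK mouse 2 (0.0875) or 4 (0.0627).

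*Cdkn1a* (chr17:29090976-29100727) encodes p21, the CDK inhibitor that p53 induces and that stops cells at the G1/S boundary. Its levels were 47.0, 19.4, 10.2 and 23.7 CPM in vehicle mice 1 to 4 and 39.6, 69.3, 81.1 and 128.6 CPM in ISOGK mice 1 to 4. The groups overlapped because vehicle mouse 1 was above ISOGK mouse 1, and the spread within each group was wide. Its fitted difference was 3.19-fold (log2 fold change 1.67, SE 0.54, 95% confidence interval 0.41 to 2.94), which did not pass the test across all genes (edgeR adjusted p = 0.115, exact permutation p = 0.0571). Over the alternatives its adjusted p lay between 0.0321 and 0.25, and it passed with the Wald test of DESeq2 (0.0321) and without the robust option of edgeR (0.0398). With each mouse left out, the log2 fold change ran from 1.34 without ISOGK mouse 4 (edgeR adjusted p = 0.233) to 2.17 without vehicle mouse 1 (0.0578), the vehicle mouse that made the groups overlap.

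The other genes of this group did not pass the test. *Mdm2*, the ubiquitin ligase that degrades p53 and is itself a p53 target, was at 14.99 to 19.6 CPM in vehicle and 17.7 to 22.6 CPM in ISOGK mice (log2 fold change 0.29, SE 0.12, edgeR adjusted p = 0.163). *Cdkn1b*, which encodes the CDK inhibitor p27, was at 16.1 to 19.4 against 14.4 to 18.4 CPM (log2 fold change -0.12, 95% confidence interval -0.37 to 0.13). The relatives of *Gadd45g* had other values. *Gadd45a*, a p53 target, was at 0.953 to 2.25 CPM in vehicle and 0.528 to 1.36 CPM in ISOGK mice (log2 fold change -0.69, SE 0.38, edgeR adjusted p = 0.29), and 19.1% of its exonic length overlaps a transcript on the opposite strand. *Gadd45b*, induced by TGF-β and NF-κB signalling, was at 4.83 to 8.33 CPM in vehicle mice, and in ISOGK mice it was at 3.19 CPM in mouse 1 and 7.18 to 7.80 CPM in the others (log2 fold change 0.10, SE 0.27, negative with library size alone). The summed level of the 6 genes was 107, 74.9, 61.2 and 70.4 CPM in vehicle mice 1 to 4 and 97.0, 147, 151 and 220.0 CPM in ISOGK mice 1 to 4, and in ISOGK mice 3 and 4 *Cdkn1a* held more of it than the other 5 genes together.

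**Figure D2:**
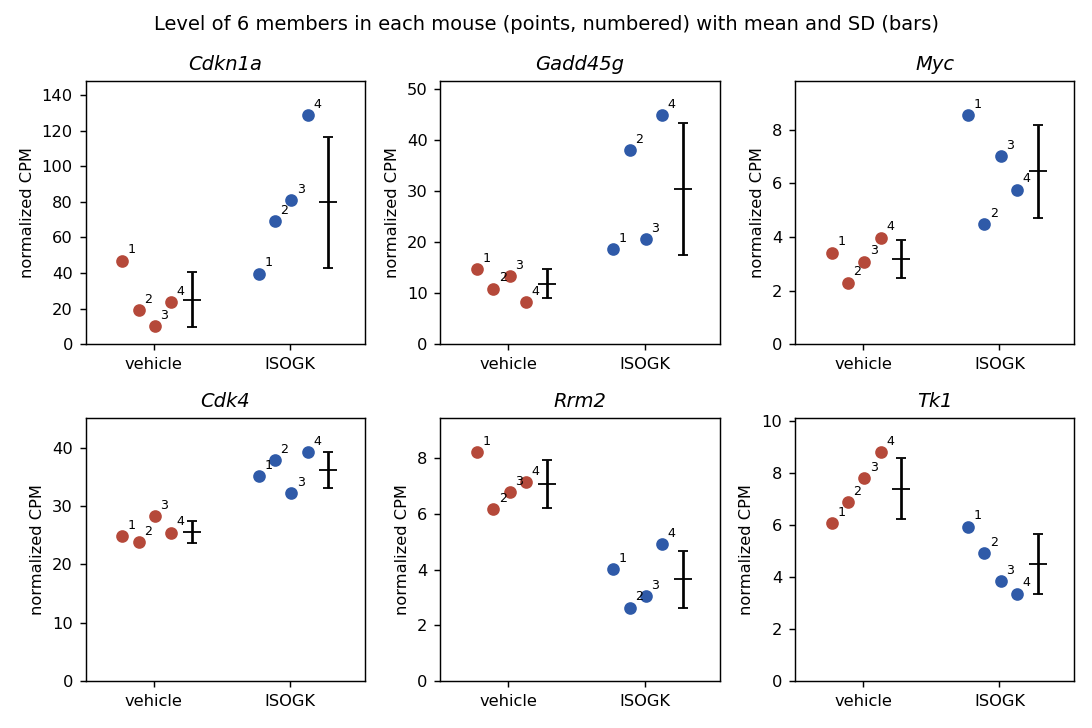
Normalized CPM (y axis, from 0) of 6 members in each numbered vehicle and ISOGK mouse, with the group mean and SD beside the points. *Cdkn1a* overlaps between groups through vehicle mouse 1 (47.0 CPM) and ISOGK mouse 1 (39.6 CPM), while the other 5 genes do not overlap and *Tk1* is nearly level in vehicle and ISOGK mice 1.

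Of the 7 genes of G1 and G1/S control, 2 rose and none of the 7 fell, with a median log2 fold change of -0.21. *Myc* (chr15:61985391-61990374), the transcription factor that drives growth and ribosome production, was at 3.41, 2.29, 3.08 and 3.98 CPM in vehicle mice 1 to 4 and at 8.53, 4.49, 7.01 and 5.76 CPM in ISOGK mice 1 to 4. The lowest ISOGK mouse was only slightly above the highest vehicle mouse. It was 2.03-fold higher (log2 fold change 1.02, SE 0.22, edgeR adjusted p = 0.0183, exact permutation p = 0.0286). The call was lost without vehicle mouse 2 (adjusted p = 0.0664) and without vehicle mouse 3 (0.0538), and was kept in the other 14 of 16 alternatives. *Myc* and *Gadd45g* were the called members whose log2 fold change was also beyond 1, as it was for 1.63% of all genes in either direction.

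*Cdk4* (chr10:127063534-127067920), the kinase partner of the D-type cyclins, had the smallest SE of the called members. It was at 24.8, 23.8, 28.2 and 25.4 CPM in vehicle mice 1 to 4 and at 35.2, 37.8, 32.2 and 39.2 CPM in ISOGK mice 1 to 4. All ISOGK mice were above all vehicle mice, and both groups were narrow. *Cdk4* was 1.41-fold higher (log2 fold change 0.50, SE 0.10, edgeR adjusted p = 0.0101, exact permutation p = 0.0286) and was called in all 16 alternatives, with an adjusted p of at most 0.0462. Its exons overlap those of *Tspan31*, a tetraspanin gene on the opposite strand, over 641 bases or 19.7% of the exonic length of *Cdk4*. *Tspan31* was more abundant, at 154 CPM on average in vehicle and 237 CPM in ISOGK mice (log2 fold change 0.62, edgeR adjusted p = 0.0108). Whether strand was used in counting is not given in the sources used here, so reads of the overlap cannot be told apart between these genes.

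The cyclins, *Cdk2* and *E2f1* did not pass the test. *Ccnd1*, the D-type cyclin that rises when hepatocytes leave rest, was at 14.0 to 14.6 CPM in vehicle mice 1 to 3, at 24.7 CPM in vehicle mouse 4 and at 10.98 to 17.3 CPM in ISOGK mice. Its log2 fold change was -0.25 (SE 0.20, edgeR adjusted p = 0.494) and -0.0058 without vehicle mouse 4, the mouse with the muscle markers, whose part in this value was not tested beyond leaving the mouse out. The exons of *Ccnd1* overlap *LTO1* on the opposite strand over 23.4% of their length. *Ccne1*, a cyclin of the G1/S switch, was at 0.803 to 1.07 CPM in vehicle mice and at 0.932, 0.317, 0.452 and 0.472 CPM in ISOGK mice 1 to 4, so that ISOGK mouse 1 alone lay within the vehicle range (log2 fold change -0.77, SE 0.35, edgeR adjusted p = 0.204). *E2f1*, the activator of S-phase genes, was at 1.61 to 2.64 CPM in vehicle and 0.848 to 1.99 CPM in ISOGK mice (log2 fold change -0.69, SE 0.28, edgeR adjusted p = 0.152). *Cdk2* was at 6.12 to 6.92 against 4.01 to 7.18 CPM (log2 fold change -0.12, SE 0.17). *Ccne2*, the second E-type cyclin, had 5 to 28 counts per library. Its log2 fold change was -0.21 with a 95% confidence interval of -1.44 to 1.03, and differences within these bounds were not excluded.

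Of the 13 genes of DNA replication and nucleotide supply, 12 were tested, 2 fell and none rose. The fallen pair are enzymes of deoxynucleotide supply. *Rrm2* (chr12:24708241-24714146), the S-phase subunit of ribonucleotide reductase, was at 8.23, 6.17, 6.78 and 7.15 CPM in vehicle mice 1 to 4 and at 4.02, 2.64, 3.05 and 4.92 CPM in ISOGK mice 1 to 4. The groups were clearly apart. *Rrm2* fell to 0.519 of the vehicle level (log2 fold change -0.95, SE 0.19, edgeR adjusted p = 0.0135, exact permutation p = 0.0286), and was called in all 16 alternatives with an adjusted p of at most 0.0441.

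*Tk1* (chr11:117815526-117826092), the thymidine kinase of the salvage pathway, was at 6.07, 6.88, 7.79 and 8.80 CPM in vehicle mice 1 to 4 and at 5.93, 4.91, 3.84 and 3.35 CPM in ISOGK mice 1 to 4. Vehicle mouse 1 and ISOGK mouse 1 were nearly level, and the other mice were clearly apart. *Tk1* fell to 0.612 of the vehicle level (log2 fold change -0.71, SE 0.19, edgeR adjusted p = 0.044, exact permutation p = 0.0286). The call was kept in 8 of 16 alternatives. It was lost when any mouse other than ISOGK mouse 1 was left out, the adjusted p being 0.0544, 0.0991, 0.107 and 0.11 without vehicle mice 1, 2, 3 and 4 and 0.0826, 0.0714 and 0.0902 without ISOGK mice 2, 3 and 4. *Tk1* overlaps *Afmid* on the opposite strand over 1.6% of its exonic length, and *Afmid* was not called (log2 fold change -0.37, edgeR adjusted p = 0.295).

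The partners of these enzymes did not pass the test. *Rrm1*, the large subunit of ribonucleotide reductase, was at 10.8 to 11.7 CPM in vehicle and 8.93 to 13.2 CPM in ISOGK mice (log2 fold change -0.11, 95% confidence interval -0.41 to 0.18). *Tyms*, which makes thymidylate along the de novo route, was at 3.41 to 4.51 against 3.84 to 5.44 CPM (log2 fold change 0.24, SE 0.17, edgeR adjusted p = 0.425), and a *Tyms* pseudogene is annotated. The differences of *Rrm2* from *Rrm1* and of *Tk1* from *Tyms* were not tested. *Pcna*, the sliding clamp of DNA polymerases, was at 17.3 to 21.7 CPM in vehicle and 17.7 to 22.2 CPM in ISOGK mice, and its confidence interval allowed a fold between 0.839 and 1.16, although reads of its pseudogenes may be split with it.

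The MCM genes encode the subunits of the replicative helicase, which is loaded before S phase. Of the 6 listed, *Mcm5* did not overlap between groups, at 1.66, 2.06, 1.67 and 1.56 CPM in vehicle mice 1 to 4 and 1.52, 1.108, 0.792 and 1.153 CPM in ISOGK mice 1 to 4. Vehicle mouse 4 and ISOGK mouse 1 were nearly level, and the difference did not pass across all genes (log2 fold change -0.60, SE 0.25, edgeR adjusted p = 0.166, exact permutation p = 0.0286). The other subunits had log2 fold changes of 0.43 for *Mcm2* (SE 0.24), -0.08 for *Mcm3* (SE 0.17), 0.03 for *Mcm4* (SE 0.21), -0.31 for *Mcm6* (SE 0.19) and 0.04 for *Mcm7* (SE 0.12), where *Mcm4* and *Mcm7* turned negative with library size alone. For *Mcm7*, the most abundant of them at 10.04 to 12.3 CPM in vehicle mice, the 95% confidence interval was -0.22 to 0.30. *Gins2*, a subunit of the helicase complex, ranged from 0.995 to 5.91 CPM within the ISOGK group, and 67.3% of its exonic length overlaps *Gse1* on the opposite strand, so reads of these genes cannot be told apart over most of *Gins2* (log2 fold change 0.05, SE 0.46, negative with library size alone). The summed level of the 13 genes was 76.0 to 84.4 CPM in vehicle and 67.5 to 80.3 CPM in ISOGK mice, and the median log2 fold change of the 12 tested genes was -0.05.

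Of the 11 genes of mitosis and G2/M, 8 were tested, none rose and none fell, and at an unadjusted p under 0.05 the count was also 0. Their summed level was 8.43, 7.87, 9.11 and 9.02 CPM in vehicle mice 1 to 4 and 12.2, 7.39, 7.29 and 8.85 CPM in ISOGK mice 1 to 4, which is 129 to 248 counts per library for all 11 genes. ISOGK mouse 1 was above every vehicle mouse and ISOGK mice 2 and 3 were below them. *Mki67*, the proliferation marker of dividing cells, was at 1.91, 1.58, 1.52 and 0.804 CPM in vehicle mice and 1.77, 0.686, 0.848 and 0.576 CPM in ISOGK mice (log2 fold change -0.57, 95% confidence interval -1.39 to 0.26, edgeR adjusted p = 0.393). ISOGK mice 1 and 3 lay within the vehicle range. With each mouse left out, its log2 fold change ran from -1.04 without ISOGK mouse 1 (edgeR adjusted p = 0.0991) to -0.38 without ISOGK mouse 4 (0.624). *Top2a*, the topoisomerase that untangles chromosomes, was at 1.46 to 1.99 against 1.21 to 2.55 CPM. *Cdk1*, the kinase that starts mitosis, was at 0.803 to 1.12 against 0.792 to 1.78 CPM (log2 fold change 0.16, SE 0.31).

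The intervals of the remaining mitotic genes all held 0. The mitotic cyclin genes *Ccna2* and *Ccnb1* had log2 fold changes of 0.36 (SE 0.31) and 0.45 (SE 0.49), *Ccna2* shares 12.5% of its exonic length with *Exosc9* on the opposite strand, and a *Ccnb1* pseudogene is annotated. *Cdc20*, which activates the anaphase-promoting complex, *Plk1* and *Aurka*, kinases of the spindle, had log2 fold changes of 0.08, 0.04 and 0.04 with SEs of 0.42, 0.45 and 0.28, and all of them turned negative with library size alone. The median of the 8 genes was 0.06, and -0.07 with library size alone.

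The members left untested for low counts were *Ccnb2*, *Bub1*, *Birc5* and *Cdc6*. *Ccnb2*, a mitotic cyclin with an annotated pseudogene, had 8, 6, 12 and 13 counts in vehicle mice 1 to 4 and 24, 9, 1 and 5 counts in ISOGK mice 1 to 4. *Bub1*, a spindle checkpoint kinase, had 2, 1, 1 and 6 counts in vehicle mice and 11, 2, 1 and 2 counts in ISOGK mice. *Birc5*, which encodes survivin, had 10, 8, 10 and 9 against 10, 6, 8 and 10 counts. *Cdc6*, a loader of the MCM helicase, had 5, 4, 3 and 2 against 1, 2, 1 and 4 counts. When edgeR was run without the filter, their adjusted p-values were 0.886, 0.637, 0.899 and 0.779, with log2 fold changes of 0.24, 0.87, 0.15 and -0.51 and SEs of 0.62, 0.86, 0.42 and 0.75. At these counts a difference in these genes was neither found nor excluded.

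Levels were also divided by exonic length, taken as all annotated exons of a gene joined, which can be longer than the transcripts present in liver. The order of genes depends on this length. Without it, *Cdk4* at 25.6 and *Pcna* at 19.6 CPM on average in vehicle mice were above *Gadd45g* at 11.8 CPM. Per kilobase of exon so defined, the highest members were those of arrest, G1 control and replication. Every mitosis gene was below 1 CPM per kb in every mouse. In vehicle mice *Gadd45g* led at 10.1 ± 2.42 CPM per kb (SD, n = 4), followed by *Pcna* at 8.16 ± 0.746, *Cdk4* at 7.87 ± 0.580 and *Cdkn1a* at 7.06 ± 4.41, which are neighbours whose ranges overlap. *Gadd45b*, *Cdkn1b*, *Ccnd1* and *Mdm2* came next, at 3.79, 3.77, 3.58 and 3.31 CPM per kb, again with overlapping ranges, before *Rrm2* at 2.56 and *Mcm7* at 2.50. The lowest were *Cdc6* at 0.0294 and *Bub1* at 0.0257 CPM per kb. In ISOGK mice *Gadd45g* at 26.0 ± 11.04 and *Cdkn1a* at 22.4 ± 10.4 CPM per kb overlapped with each other and had higher means than *Cdk4* at 11.1 ± 0.953, although the lowest mouse for *Cdkn1a* lay within the range of *Cdk4*.

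**Figure D3:**
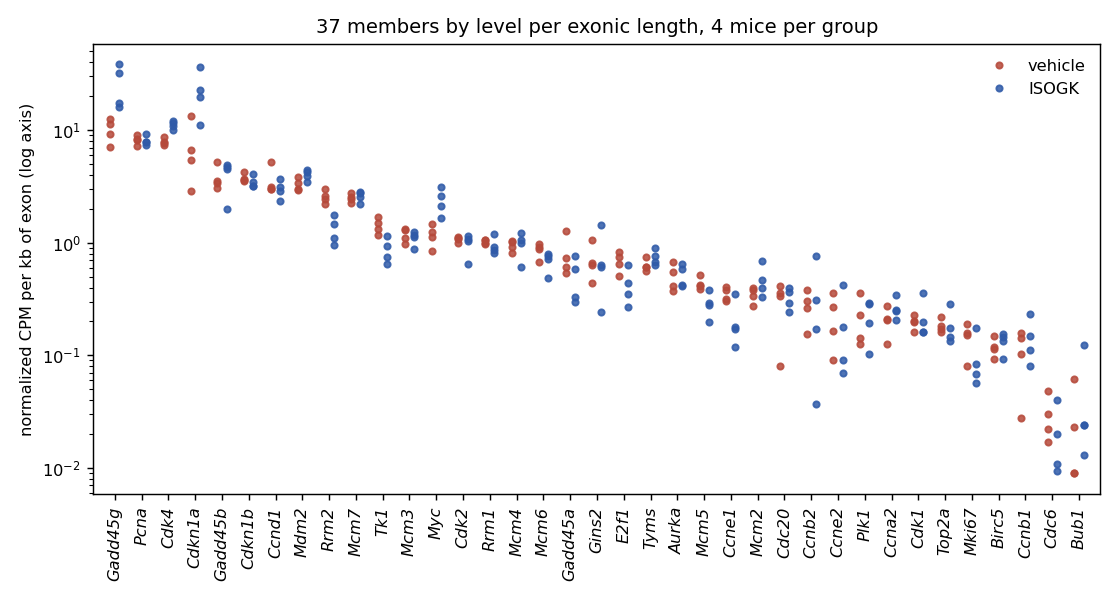
Normalized CPM per kb of exon (y axis, log scale) of the 37 members in each of 4 vehicle and 4 ISOGK mice, ordered by the vehicle mean. The length is that of all annotated exons of a gene joined, and the order depends on it. *Gadd45g* is highest and *Bub1* lowest in vehicle mice, and the mitotic genes fill the right side with wide spreads.

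Other genes of the same pathways were examined as lists, whose counts of calls stand beside the 7.55% of all genes called in either direction. These lists too were chosen with earlier results known. Of 33 other mitosis genes 19 were tested, and only *Pttg1* was called. *Pttg1*, which encodes securin, the guardian of sister chromatid cohesion, was at 11.2, 10.8, 13.5 and 11.2 CPM in vehicle mice 1 to 4 and 15.9, 17.3, 14.9 and 16.9 CPM in ISOGK mice 1 to 4, without overlap (log2 fold change 0.48, SE 0.11, edgeR adjusted p = 0.0264). Of 36 other replication genes 34 were tested, and only *Dbf4*, the regulatory subunit of the CDC7 kinase that fires origins, was called. *Dbf4* fell from 2.31, 2.10, 2.02 and 1.52 CPM in vehicle mice to 1.18, 0.739, 1.02 and 1.21 CPM in ISOGK mice (log2 fold change -0.93, SE 0.25, edgeR adjusted p = 0.0408). Of 16 genes of the E2F and retinoblastoma family 15 were in the table and 14 were tested, and only *Lin9*, a subunit of the MuvB complex that works with E2F and MYB proteins, was called, from 2.31, 2.18, 1.71 and 2.99 CPM to 1.13, 0.844, 0.735 and 1.41 CPM (log2 fold change -1.14, SE 0.27, edgeR adjusted p = 0.0274). The medians of these lists were 0.12, -0.15 and -0.10 on the log2 scale, the first of which was -0.02 with library size alone and the third 0.02 without vehicle mouse 4.

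Among 27 other cyclins, CDKs and their regulators 23 were tested and 2 rose. *Ccng2*, an unconventional cyclin linked to growth arrest, was at 13.2, 12.9, 8.80 and 10.6 CPM in vehicle mice and 15.7, 19.8, 23.4 and 24.8 CPM in ISOGK mice, without overlap (log2 fold change 0.88, SE 0.17, edgeR adjusted p = 0.00945). *Ccnd3*, a D-type cyclin and so a partner of CDK4, was at 25.2, 25.7, 29.9 and 25.8 CPM in vehicle mice and 36.8, 46.9, 29.9 and 37.5 CPM in ISOGK mice, with ISOGK mouse 3 level with vehicle mouse 3 (log2 fold change 0.50, SE 0.13, edgeR adjusted p = 0.0358). Of 28 genes of the p53 pathway, all tested, 2 rose and none fell, *Ei24* and *Plk3*, against a list median of 0.01. *Ei24*, a p53-induced protein of the endoplasmic reticulum, was at 153 to 180 CPM in vehicle and 206 to 256 CPM in ISOGK mice (log2 fold change 0.43, SE 0.10, edgeR adjusted p = 0.0249). *Plk3*, a stress-responsive kinase, was at 23.7 to 40.0 against 38.7 to 61.7 CPM, with overlap (log2 fold change 0.74, SE 0.19, edgeR adjusted p = 0.0461). With library size alone neither was called, 1 gene of the list was called lower and the list median was -0.12. Of 21 immediate early and MYC network genes 20 were tested and only *Mga*, a repressor that competes with MYC for MAX, was called. *Mga* fell from 22.5, 23.4, 25.4 and 18.0 CPM to 14.6, 8.66, 11.5 and 7.65 CPM, without overlap (log2 fold change -1.07, SE 0.19, edgeR adjusted p = 0.00729), and the list median was -0.15.

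Of these 8 genes, *Ccng2* and *Mga* were called in all 16 alternatives, and the calls of the other 6 were lost in 4 to 9 of them. *Pttg1* had an adjusted p of up to 0.0955, *Dbf4* of up to 0.115, *Lin9* of up to 0.0771, *Ccnd3* of up to 0.109, *Ei24* of up to 0.0929 and *Plk3* of up to 0.124. All 6 lost their call without vehicle mouse 1, without vehicle mouse 2 and without ISOGK mouse 2. Without vehicle mouse 4 *Ccnd3*, *Ei24*, *Lin9*, *Plk3* and *Pttg1* lost it, without vehicle mouse 3 *Dbf4* and *Ei24*, without ISOGK mouse 1 *Dbf4* and *Plk3*, without ISOGK mouse 3 *Dbf4*, and without ISOGK mouse 4 *Ccnd3*, *Dbf4*, *Plk3* and *Pttg1*. With library size alone *Ccnd3* (adjusted p = 0.101) and *Pttg1* (0.0933) lost it beside *Ei24* and *Plk3*, and without the filter on low counts *Plk3* did (0.0608).

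Markers of other liver cells moved with treatment in a few cases, and they stand beside the values above because dividing cells in the liver can belong to several types. The 10 macrophage markers summed to 1262 to 1603 CPM in vehicle and 1017 to 1323 CPM in ISOGK mice, with *Cd68* called lower (log2 fold change -0.57, edgeR adjusted p = 0.009). The 8 neutrophil markers summed to 3.80 to 8.68 against 7.44 to 29.6 CPM, highest in ISOGK mouse 1, and *S100a9* was called higher among the 4 tested (log2 fold change 1.31, edgeR adjusted p = 0.0149). The cholangiocyte markers summed to 27.6 to 34.8 against 28.3 to 69.2 CPM, with *Sox9* called higher (log2 fold change 0.51, edgeR adjusted p = 0.0494). None of the lymphocyte, erythroid, endothelial, stellate or hepatocyte markers was called, and lymphocyte markers summed to 9.02 to 21.2 and 8.38 to 19.4 CPM. No gene of the count table was at 0 in all libraries, so the table could not show a marker at 0 throughout. Of the 8 erythroid markers, 7 were in the table. The part of these cells in the values of the members was not tested.

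**Figure D4:**
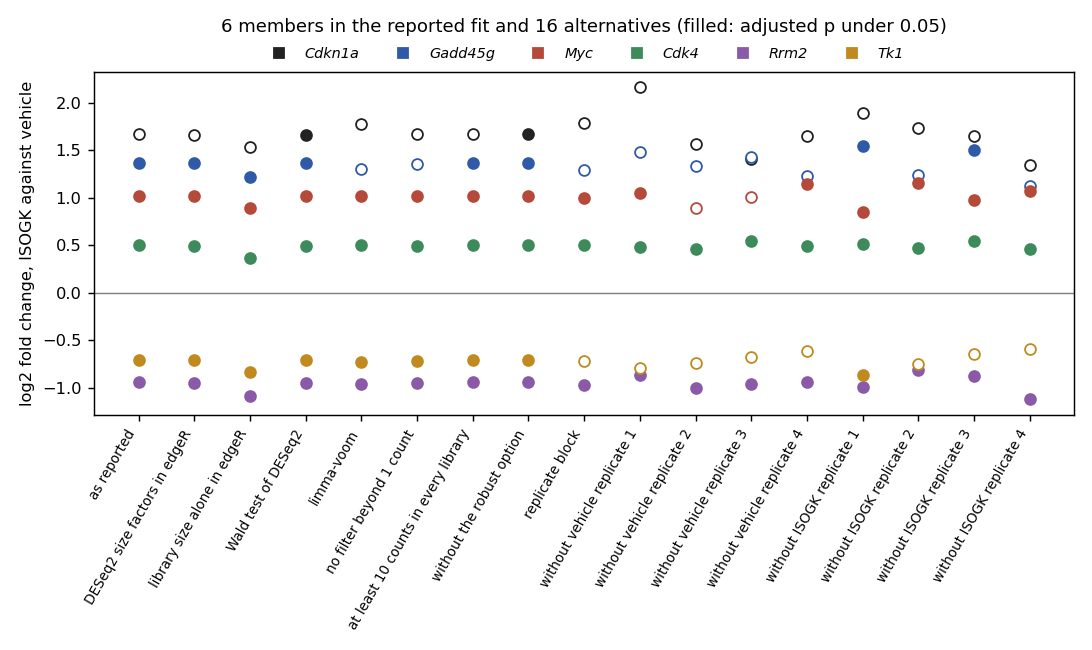
Log2 fold change of ISOGK against vehicle (y axis) for 6 members in the analysis as reported and in 16 alternatives (x axis), with filled points where the adjusted p was under 0.05. *Cdk4* and *Rrm2* are filled throughout, *Myc* is open without vehicle mice 2 and 3, and *Gadd45g* and *Tk1* are open in 9 and 8 alternatives.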

How the data were processed

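Total RNA of mouse liver was made into mRNA-Seq libraries and sequenced single-end by the authors, with HISAT2 as the aligner, a mouse reference from Ensembl and StringTie as the source of raw gene counts. The deposited counts are whole numbers and were not normalized. The strand setting and the Ensembl release are not given in the sources used here. The authors' DESeq2 normalization was not used. Columns named DMSO were taken as vehicle.

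Genes were filtered with filterByExpr (minimum count 10, minimum total 15), scaled with TMM and tested with the robust quasi-likelihood test of edgeR 4.0.16 in R 4.3.3, with Benjamini-Hochberg adjustment over all tested genes. The SE is the log2 fold change divided by the square root of F, and 95% confidence intervals use the t distribution of the fit. Log2 CPM with a prior count of 2 entered two-sided exact permutation tests. Alternatives used DESeq2 1.42.0, limma-voom (limma 3.58.1), other scalings and filters, a replicate block, and each mouse left out. Coordinates and exonic lengths, which join the exons of all annotated transcripts of a gene, are from GENCODE M21 (GRCm38), and promoters from RefSeq. Scripts were tested on simulated data. All 37 members were named, as were the called genes of the other pathway lists. Members and lists were chosen with earlier results of these data known. The common biological coefficient of variation was 0.164, and precision from counting covers counting error only.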

Additional observations from a re-analysis of the deposited data

Results flagged for a closer look

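Within-group gaps were examined for the 37 members in both groups, 74 groups of 4 mice in all. In 3 of them a mouse lay so far from the others that its gap, as a share of the group's range, was above Dixon's 95% critical value, where chance gives about 1 in 20, or 3.7 of 74. *Ccnd1* in vehicle mouse 4 was the highest, at 24.7 CPM with vehicle mice 1 to 3 at 14.0 to 14.6 CPM (gap 0.944), and this is the mouse with skeletal muscle markers at a summed 69.1 CPM. *Bub1* in ISOGK mouse 1 was at 0.54 CPM, or 11 counts, against 0.0565 to 0.106 CPM (gap 0.899). *Gadd45b* in ISOGK mouse 1 was the lowest, at 3.19 CPM against 7.18 to 7.80 CPM (gap 0.865), and the same mouse had the highest neutrophil marker sum, 29.6 CPM. The part of muscle or neutrophil RNA in these values was not tested.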

How the results depend on the processing

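Of 523 member results over 16 alternatives, 455 kept direction and side of the threshold, 3 kept direction with no adjusted p from DESeq2 (*Ccnb1*, *Cdc20* and *Plk1*), 19 lost a call, 2 gained one (both *Cdkn1a*) and 44 changed sign, none of which was called in the analysis as reported. The cause of these changes was not tested. *Cdk4* and *Rrm2* kept their calls in all alternatives. DESeq2's Wald test gave 1435 genes under the threshold, where edgeR gave 929. Leaving out each mouse in turn gave 379 to 1235 such genes, 123 to 250 with an absolute log2 fold change over 1, 1 to 3 members higher and 1 to 2 lower. Deviations of same-numbered mice from their group means correlated at 0.013, -0.0144, 0.0754 and 0.0849. For different numbers the values ran from -0.207 to 0.219, the highest between ISOGK mouse 2 and vehicle mouse 4. Such correlations cannot show whether mice were paired in the design. With the number as a replicate block 1 member was lower and 2 were higher, the calls of *Gadd45g* (adjusted p = 0.162) and *Tk1* (0.0818) being lost as were those of *Ccnd3* (0.0613), *Dbf4* (0.0746), *Plk3* (0.0684) and *Pttg1* (0.0518), and log2 fold changes turned to -0.041 for *Top2a* and -0.064 for *Gins2*.

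Library size alone turned the log2 fold change to -0.13 for *Top2a*, -0.056 for *Cdc20*, -0.10 for *Plk1*, -0.083 for *Aurka*, -0.11 for *Mcm4*, -0.091 for *Mcm7*, -0.074 for *Gins2* and -0.033 for *Gadd45b*. Limma-voom gave -0.044 for *Top2a*, -0.0072 for *Mcm4* and -0.16 for *Gins2*, and no filter gave -0.0033 for *Top2a*. With each mouse left out, log2 fold changes ranged from -0.28 to 0.13 for *Top2a*, -0.18 to 0.29 for *Cdk1*, -0.20 to 0.29 for *Cdc20*, -0.15 to 0.42 for *Plk1*, -0.089 to 0.21 for *Aurka*, -0.17 to 0.010 for *Mcm3*, -0.098 to 0.20 for *Mcm4*, -0.0020 to 0.11 for *Mcm7*, -0.089 to 0.035 for *Pcna*, -0.51 to 0.34 for *Gins2*, -0.96 to 0.11 for *Ccne2*, -0.21 to 0.027 for *Cdk2* and -0.018 to 0.32 for *Gadd45b*. Counts limit the mitotic genes most, and a minimum of 10 counts in every library gave no value for *Ccnb1*, *Cdc20*, *Plk1*, *Ccne1* and *Ccne2*.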
